A study of Bos taurus with 6 samples.

Results

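A set of 8 miRNAs known from leukocytes and inflammation were followed in cattle liver: bta-miR-142-5p, bta-miR-142-3p, bta-miR-146a, bta-miR-146b, bta-miR-150, bta-miR-155, bta-miR-223 and bta-miR-342. They were chosen by name, as 8 of the 1030 mature miRNAs that each library lists. Small RNA was sequenced from the left liver lobe of 3 grass-fed Wye Angus steers, 21 months old, and 3 grain-fed Wye Angus steers, 14 months old, with 1 library per animal. The grass-fed steers ate mainly alfalfa, hay or pasture, and the grain-fed steers ate mainly corn silage, shelled corn, soybean and minerals. All animals came from 1 closed herd, and diet cannot be told apart from age. Summed over all miRNAs, the counts came to 5076925, 6133960 and 3824592 for grass-fed animals and to 892929, 634950 and 464875 for grain-fed animals, so depth also followed diet. Values of a diet are given in the order of replicates 1, 2 and 3 throughout. In every library the tissue was marked by bta-miR-122, the main hepatocyte miRNA, which took between 14.9% and 31.7% of the counts.

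miRNAs are short RNAs that guide a silencing complex to messenger RNAs, mostly through the seed, bases 2 to 8 from the 5′ end. The miR-142 hairpin is transcribed in nearly all blood cell lineages and gives rise to miRNAs from both of its arms, 5p and 3p. miR-150 is a miRNA of mature B and T lymphocytes and limits MYB, and miR-342 is also abundant in lymphocytes and monocytes. miR-223 is the classical miRNA of granulocytes and monocytes. miR-146a and miR-146b are induced through NF-kB and restrain it by targeting the adaptors TRAF6 and IRAK1, whereas miR-155, which is also induced by NF-kB, mostly promotes inflammatory signalling, in part by targeting SOCS1 and INPP5D. In the liver such miRNAs can come from Kupffer cells, resident lymphocytes and blood in the vessels.

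miR-146a and miR-146b differ only near their 3′ ends, which shows in the oligos that the study designed for its RT-qPCR of miR-146a, miR-146b and miR-150. The forward primers are given whole, and the reverse transcription primers by their last 18 bases, with the 6 bases that pair with the 3′ end of the miRNA in capitals.
bta-miR-146a, forward: cgcgtgagaactgaattccata
bta-miR-146b, forward: cgcgtgagaactgaattccata
bta-miR-150, forward: gcgtctcccaacccttgtac
bta-miR-146a, reverse transcription: actggatacgacACAACC
bta-miR-146b, reverse transcription: actggatacgacACAGCC
bta-miR-150, reverse transcription: actggatacgacACACTG
The forward primers of miR-146a and miR-146b are identical. Their reverse transcription primers have 50 bases each, of which the first 44 are a stem-loop shared with the primers of the other miRNAs. They differ at 1 base, A48G, counted from the 5′ end with the base of the miR-146a primer first. In the sequencing libraries the authors counted both miRNAs separately with miRDeep2, and reads that stop short of the differing bases cannot be told apart.

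All 8 miRNAs are listed with 1 precursor each, and all 8 passed the filter of a count above 2 in at least 2 libraries, as did 456 miRNAs in all. In RefSeq's annotation of ARS-UCD2.0, which is later than the ARS-UCD1.2 assembly used by the authors, 7 of the 7 precursors were found by name. The precursor of miR-342 lies within EVL, that of miR-142 overlaps TSPOAP1 and the lncRNA LOC132342998, and that of miR-223 overlaps VSIG4, a gene of Kupffer cells, and the lncRNA LOC132344326. The precursors of miR-146a, miR-146b, miR-150 and miR-155 overlap no other annotated gene.

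Levels are given as CPM, the usual counts scaled to a common library size, after TMM scaling, which sets libraries level on the bulk of their miRNAs. A mature miRNA of this length is covered by 1 read, so CPM can be compared between miRNAs without a length term, apart from differences in ligation that were not measured. By mean CPM over all libraries the order was miR-146a, miR-142-5p, miR-146b, miR-342, miR-150, miR-155, miR-223 and miR-142-3p. miR-146a ranked 58 and miR-142-5p 69 among the 456 miRNAs, and their CPM ranges overlapped, with miR-142-5p the higher in the mean of the grass-fed group. miR-146b ranked 93 and miR-342 98, and these neighbours changed order between the diets. miR-150 and miR-155 ranked 115 and 136 and had the same count, 616, in grass-fed replicate 1, and their ranges overlapped. miR-223 ranked 180 and miR-142-3p 210, with overlapping ranges, and in 1 grain-fed library each rested on only 22 and 14 counts. The 8 miRNAs together made up 0.217%, 0.144% and 0.161% of the miRNA counts of the grass-fed animals and 0.296%, 0.256% and 0.342% of those of the grain-fed animals. Each grain-fed share was above each grass-fed share. After TMM scaling the summed levels overlapped, with 1617 to 2322 CPM in grass-fed and 2305 to 2821 CPM in grain-fed liver.

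**Figure D1:**
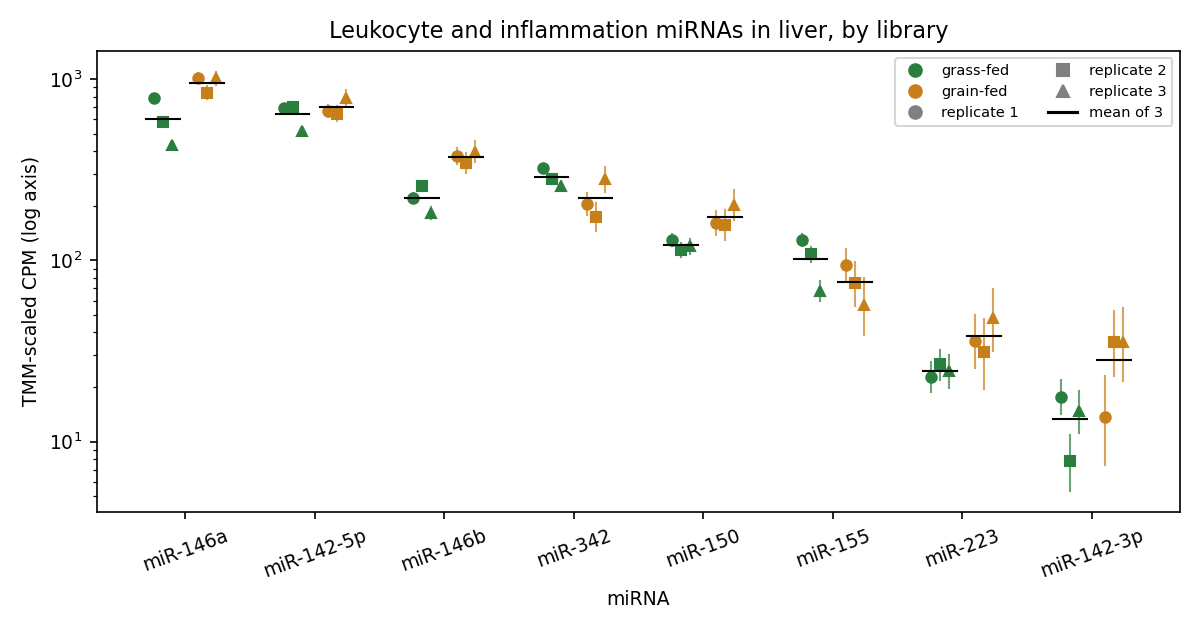
TMM-scaled CPM on a log axis for each of the 8 miRNAs in each of the 6 libraries. Symbols mark replicates, vertical lines the 95% Poisson intervals of the counts, and horizontal lines the mean of 3 libraries. miR-146a, miR-146b, miR-150 and miR-223 were higher in every grain-fed library than in every grass-fed library, and the ranges of the other 4 miRNAs overlapped.

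Of the 8 miRNAs, miR-146b and miR-146a passed FDR 0.1, both lower in grass-fed animals, by the quasi-likelihood test of edgeR with Benjamini-Hochberg adjustment over the 456 miRNAs. These are 2 of 8, where 19.1% of all tested miRNAs passed, 9.65% with lower and 9.43% with higher values in grass-fed animals, so the number of calls among the 8 is near the background. Of the remaining miRNAs, 4 had a negative and 2 a positive log2 fold change. The CPM ranges did not overlap between diets for 4 of the 8, all lower in grass-fed liver, where 32.9% of the tested miRNAs did not overlap in either direction and 13.2% did so with the lower values in grass-fed liver. An unadjusted p below 0.05 was reached by 5 of the 8 and by 25.2% of all tested miRNAs. The median log2 fold change was -0.56 over the 8 and 0.13 over all tested miRNAs. The number of leukocytes in the tissue, the level of a miRNA per leukocyte and its level in other cells cannot be told apart in these libraries.

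The scaling set how far each miRNA lay from 0. With libraries scaled by total counts alone, 4 of the 8, miR-146a, miR-146b, miR-150 and miR-223, passed FDR 0.1 in edgeR, all lower in grass-fed liver, where 16.2% of all tested miRNAs passed and 14.3% passed with lower values in grass-fed animals. With upper-quartile scaling 2 passed, miR-146b lower and miR-342 higher in grass-fed liver, where 27.2% of all tested miRNAs passed. Among all tested miRNAs the calls were 44 lower and 43 higher after TMM scaling, 65 of 74 lower with total counts alone and 42 of 124 lower with upper-quartile scaling. The median of all log2 fold changes was -0.29 with total counts alone and 0.31 with upper-quartile scaling. The medians of the 8 were -0.98 and -0.37 in the same order. The median of the 8 lay below that of all miRNAs under each of these scalings. A change of scaling moves all log2 fold changes by about the same amount, so the scalings are not separate tests of that gap.

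**Figure D2:**
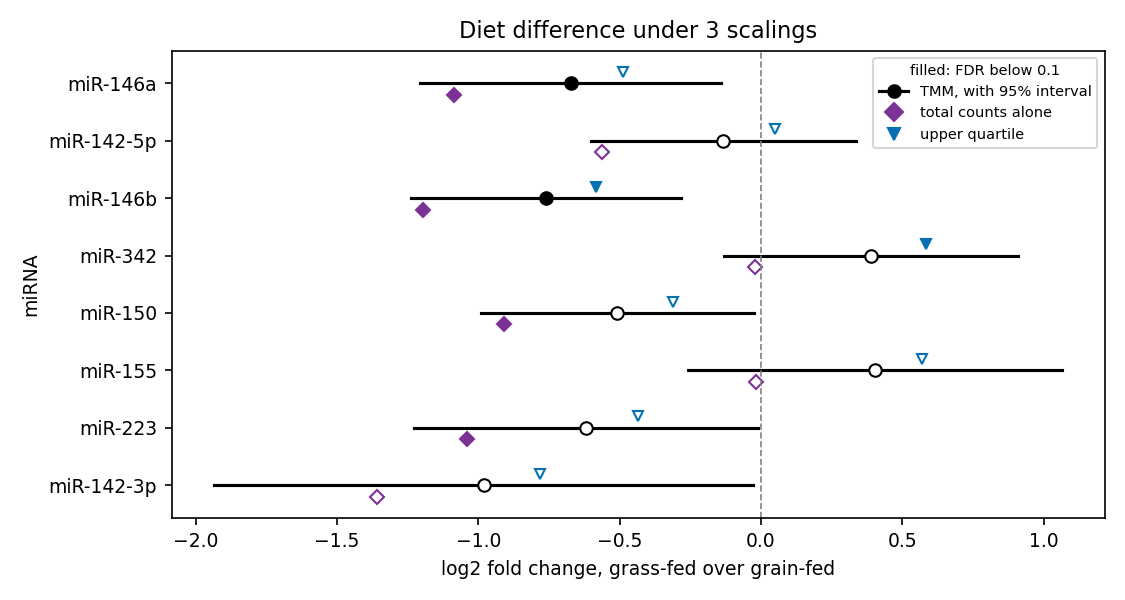
log2 fold change of grass-fed over grain-fed liver for the 8 miRNAs, with the 95% interval of the edgeR fit after TMM scaling as a line, and the values with total counts alone and upper-quartile scaling as diamonds and triangles. Filled symbols passed FDR 0.1. Only miR-146b is filled under all 3 scalings, and miR-155 and miR-342 change sign with total counts alone.

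miR-146b, the less abundant of the NF-kB feedback miRNAs, had 222, 257 and 182 CPM in the grass-fed animals and 378, 345 and 397 CPM in the grain-fed animals. The lowest grain-fed library was well above the highest grass-fed library. The means were 220 ± 37.1 and 374 ± 26.2 CPM (SD, n = 3 each), so that miR-146b was 1.69-fold higher in grain-fed liver. Its log2 fold change was -0.76 (standard error 0.22, FDR = 0.0332, edgeR quasi-likelihood test). The call was kept with any library left out, with FDR between 0.0199 and 0.0632 in edgeR.

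miR-146a had 786, 580 and 433 CPM in the grass-fed animals and 1016, 842 and 1011 CPM in the grain-fed animals. The diets did not overlap, although grass-fed replicate 1 came close to grain-fed replicate 2. The grass-fed animals spread over 1.81-fold and the grain-fed animals over 1.21-fold. The log2 fold change was -0.67 (standard error 0.24, FDR = 0.0920, edgeR), or 1.59-fold higher in grain-fed liver. The call was lost without any 1 library except grass-fed replicate 1, with FDR up to 0.199 and log2 fold changes between -1.00 and -0.56 in edgeR.

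miR-146a outnumbered miR-146b in every library. There were 3.54, 2.26 and 2.37 counts of miR-146a for each count of miR-146b in the grass-fed animals, and 2.69, 2.44 and 2.54 in the grain-fed animals. Grass-fed replicate 1 stood above the other 5 libraries, and its 95% exact binomial interval, 3.31 to 3.80, did not reach the interval of any of them. The mean log2 ratio was 1.42 ± 0.36 in grass-fed and 1.35 ± 0.07 in grain-fed liver (SD, n = 3 each; exact two-sided permutation p = 1, where the smallest p possible is 0.1). The difference of 0.06 turned to -0.14 without grass-fed replicate 1.

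miR-150, the lymphocyte miRNA, had 130, 115 and 119 CPM in grass-fed and 161, 157 and 202 CPM in the grain-fed animals. The grass-fed animals were close together, and each lay below each grain-fed animal. The 95% Poisson interval of grain-fed replicate 2, 129.3 to 189.3 CPM, reached the 129.7 CPM of grass-fed replicate 1. Its log2 fold change of -0.51 had a 95% interval from -0.99 to -0.03 and did not pass the test over all miRNAs (FDR = 0.177, edgeR). With total counts alone the value was -0.91 (FDR = 0.0433, edgeR), and in DESeq2 it was -0.58 (FDR = 0.0688). Upper-quartile scaling gave -0.31 (FDR = 0.322, edgeR). With 1 library left out miR-150 never passed, with FDR between 0.165 and 0.324 in edgeR.

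miR-223, the myeloid miRNA, was rare, with 108, 113 and 93 counts in grass-fed and 37, 22 and 27 counts in the grain-fed animals. Scaled, these were 22.7, 26.6 and 24.4 CPM in grass-fed and 36.0, 31.2 and 47.9 CPM in grain-fed liver, again without overlap. The 95% Poisson interval of the lowest grain-fed value, 19.5 to 47.2 CPM, covered all 3 grass-fed values, so the separation is within counting error for that library. The log2 fold change was -0.62 (standard error 0.28, FDR = 0.187, edgeR), and -1.04 with total counts alone (FDR = 0.0455, edgeR). Upper-quartile scaling gave -0.44 (FDR = 0.262, edgeR). No fit with 1 library left out called miR-223, with FDR between 0.149 and 0.349 in edgeR.

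miR-155, the pro-inflammatory member, had 130, 108 and 67.7 CPM in grass-fed and 94.5, 75.0 and 56.8 CPM in the grain-fed animals. The diets overlapped. The log2 fold change of 0.40 had a 95% interval from -0.26 to 1.07 (FDR = 0.442, edgeR) and was -0.02 with total counts alone.

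miR-342 had 322, 280 and 258 CPM in grass-fed and 206, 174 and 280 CPM in the grain-fed animals. Grain-fed replicate 3 reached the grass-fed range, and the other two grain-fed libraries lay below it. The log2 fold change of 0.39 did not pass (standard error 0.24, FDR = 0.328, edgeR). It was 0.59 with upper-quartile scaling (FDR = 0.0862, edgeR) and -0.02 with total counts alone (FDR = 0.973, edgeR).

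Both arms of miR-142 come from 1 hairpin, and the 5p arm dominated in each library. miR-142-5p had 693, 702 and 517 CPM in grass-fed and 666, 644 and 789 CPM in the grain-fed animals, and the ranges overlapped. With total counts alone the ranges were 486 to 648 and 717 to 957 CPM and did not overlap. How many of all tested miRNAs separate under that scaling was not computed, so this cannot be read as particular to miR-142-5p. Its log2 fold change was -0.13 with a 95% interval from -0.60 to 0.34 (FDR = 0.766, edgeR). miR-142-3p had 84, 33 and 56 counts in grass-fed and 14, 25 and 20 counts in the grain-fed animals, or 17.7, 7.78 and 14.7 CPM against 13.6, 35.4 and 35.5 CPM. Grain-fed replicates 2 and 3 were higher than all grass-fed libraries, and grain-fed replicate 1 lay within the grass-fed range. The log2 fold change of -0.98 was the most negative of the 8, with the widest error (standard error 0.44, FDR = 0.183, edgeR). It passed FDR 0.1 when grain-fed replicate 1 was left out (-1.44, FDR = 0.0869, edgeR). With any other library left out it did not pass, with FDR between 0.134 and 0.484 in edgeR. The value was -0.70 without grass-fed replicate 2.

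The arm ratio needs no scaling between libraries. For each 3p count there were 39.2, 90.3 and 35.2 counts of 5p in grass-fed and 48.9, 18.2 and 22.3 in the grain-fed animals. The 5p arm thus took 97.2% to 98.9% of miR-142 counts in grass-fed and 94.8% to 98.0% in grain-fed liver. The mean log2 ratio was 5.64 ± 0.74 in grass-fed and 4.76 ± 0.75 in grain-fed liver (SD, n = 3 each). The difference was 0.88 (exact two-sided permutation p = 0.3, where the smallest p possible is 0.1). Grass-fed replicate 2 had the largest ratio, and without it the difference was 0.46. Without grain-fed replicate 1 it was 1.31. Of the 37 miRNAs with both arms tested, 32.4% had ratios that did not overlap between diets, and miR-142 was not among them. Its mean 5p to 3p ratio ranked 5 among the 37, and its difference between diets ranked 14 in size.

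**Figure D3:**
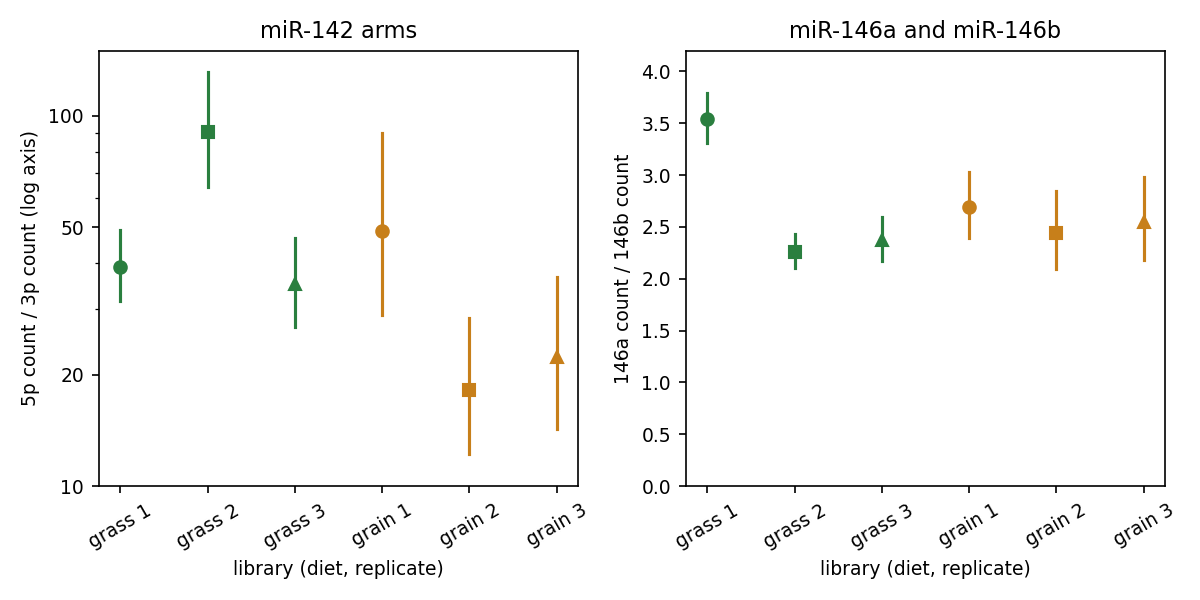
Ratio of miR-142-5p to miR-142-3p counts (left, log axis) and of miR-146a to miR-146b counts (right) in each library, with 95% exact binomial intervals. The diets overlap in both ratios. Grass-fed replicate 2 is highest on the left with 90.3, and grass-fed replicate 1 is highest on the right with 3.54.

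The make-up of the 8 miRNAs, which needs no scaling, had larger shares of miR-342, miR-155 and miR-142-5p in grass-fed liver and of miR-146a and miR-146b in grain-fed liver. miR-342 took 14.4% ± 1.33 of the summed counts of the 8 in grass-fed and 8.50% ± 1.27 in grain-fed liver (SD, n = 3 each). miR-155 took 4.99% ± 0.720 and 2.98% ± 0.865, and miR-142-5p took 31.9% ± 2.01 and 27.3% ± 1.18. In the other direction, miR-146a took 29.5% ± 3.78 in grass-fed and 37.3% ± 1.95 in grain-fed liver, and miR-146b took 11.1% ± 1.42 and 14.6% ± 0.460. These 5 shares did not overlap between the diets. Each gave the smallest p the design allows (exact two-sided permutation p = 0.1, adjusted p = 0.16 over the 8 shares). Relative to the same sum, 41.4% of all tested miRNAs did not overlap either. The shares add up to the whole, so that a lower share of one member raises the others. miR-150, miR-223 and miR-142-3p had overlapping shares.

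**Figure D4:**
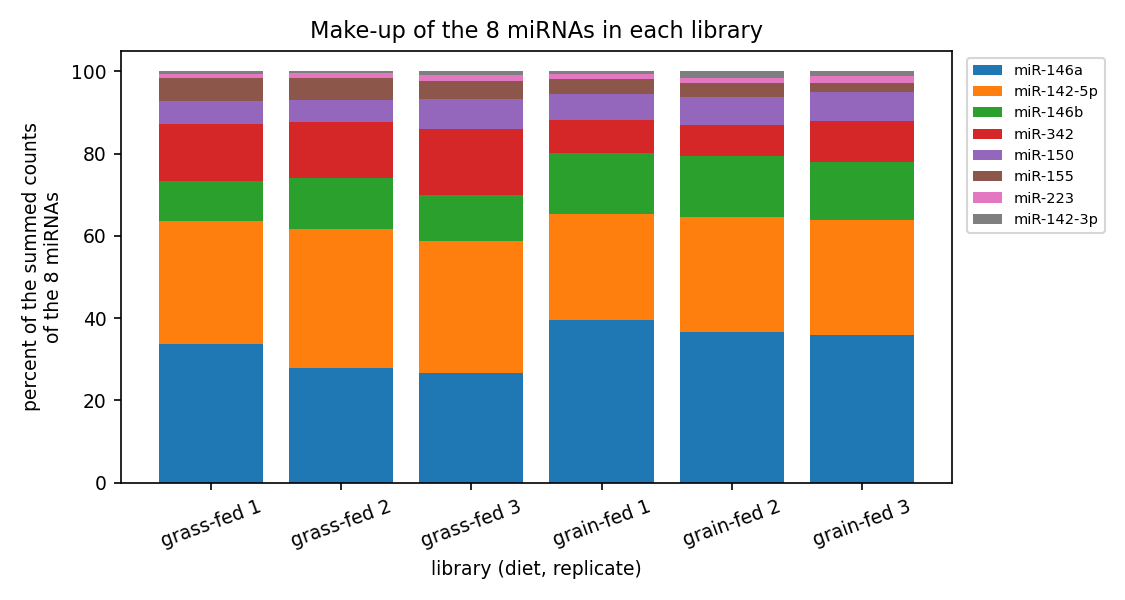
Percent of the summed counts of the 8 miRNAs that each miRNA took in each library, as stacked bars. miR-146a took 26.8% to 33.8% in grass-fed and 35.8% to 39.5% in grain-fed libraries, and miR-342 took 13.5% to 15.9% and 7.56% to 9.94%.

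Several of the 8 had their extremes within a diet in the same library. In the grain-fed group, replicate 2 was lowest for 6 of the 8 and replicate 3 highest for 6 of the 8, where 33.1% and 36.7% of the tested miRNAs without ties had their lowest and highest value there. miR-155 was lowest in grain-fed replicate 3, and miR-142-3p was lowest in grain-fed replicate 1. In the grass-fed group, replicate 3 was lowest for 5 of the 8 and replicate 1 highest for 5 of the 8, against 39.5% and 24.7% of all. With total counts alone, the lowest library of the grass-fed group changed to replicate 2, which had the lowest TMM factor and was lowest for 7 of the 8. Grass-fed replicate 1 was then highest for 7, and in the grain-fed group replicate 2 was still lowest for 6 and replicate 3 highest for 7. The shares of all tested miRNAs were not computed for total counts, so these values cannot be read as particular to the 8. With 3 libraries per diet, no correlation was computed.

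Set against hepatocyte miRNAs, the sum of the 8 was lower in every grass-fed library than in any grain-fed library. Their sum was 0.450%, 0.253% and 0.309% of the summed counts of miR-122, miR-192, miR-194 and miR-148a in the grass-fed animals, and 0.718%, 0.591% and 0.860% in the grain-fed animals. The difference in mean log2 ratio was -1.13, at the smallest p the design allows (exact two-sided permutation p = 0.1, n = 3 each), and -0.80 when miR-122 was left out of the hepatocyte list. Part of the hepatocyte list moved with diet itself. Of the 4, miR-122 and miR-192 passed FDR 0.1 in edgeR, both higher in grass-fed liver, where 9.43% of all tested miRNAs passed with higher values. miR-148a, at 0.46 (FDR = 0.212, edgeR), and miR-194, at -0.43 (FDR = 0.300, edgeR), did not pass. The mean of miR-194 was thus lower in grass-fed liver. None of the 4 was at 0, and their summed level was 516614 to 820705 CPM in grass-fed and 328202 to 389866 CPM in grain-fed liver. Their part in the ratio was not tested. After TMM scaling the summed levels of the 8 alone overlapped, at 1617 to 2322 CPM in grass-fed and 2305 to 2821 CPM in grain-fed liver. How many of all tested miRNAs also separate when set against the hepatocyte sum was not computed.

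Blood in the vessels is another source of leukocyte miRNAs, and the erythroid miRNAs miR-451, miR-144 and miR-486 track red cells. After TMM scaling none of the 3 passed FDR 0.1 in edgeR, and 0 had an unadjusted p below 0.05. None passed in DESeq2. With total counts alone, under which 4 of the 8 passed, miR-451 passed too, at -0.78 (FDR = 0.0433, edgeR). Its part in the values of the 8 was not tested. Their summed level was 419 to 643 CPM in grass-fed and 465 to 665 CPM in grain-fed liver, and miR-144 was at 0 in grain-fed replicate 3. miR-451 averaged 377 ± 104 CPM in grass-fed against 476 ± 98.4 CPM in grain-fed animals (SD, n = 3 each; log2 fold change -0.34, FDR = 0.442, edgeR). miR-486 averaged 126 ± 18.9 against 101 ± 3.60 CPM (SD, n = 3 each; log2 fold change 0.31, FDR = 0.441, edgeR). Every grass-fed library was above every grain-fed library for miR-486, where 32.9% of all tested miRNAs did not overlap in either direction. The ranges of miR-451 overlapped. Among miRNAs of other liver cells, 3 of 5 stellate and mesenchymal miRNAs passed FDR 0.1, all higher in grass-fed liver. None of 2 endothelial miRNAs passed in edgeR or DESeq2 or had an unadjusted p below 0.05. Of 5 biliary miRNAs 1 was higher and 1 lower. Of all tested miRNAs 19.1% passed in edgeR, 9.65% with lower and 9.43% with higher values in grass-fed liver.

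Other miRNAs with a place in immune cells were taken from a list of 17, of which 16 are listed in the files and 15 were tested. In edgeR, 2 passed FDR 0.1, both higher in grass-fed liver. Of all tested miRNAs 19.1% passed, so the list was not called more often than miRNAs at large. None was called lower by edgeR or DESeq2, 1 had lower values with an unadjusted p below 0.05 in edgeR, and the median log2 fold change was 0.07. The 2 were miR-125a and miR-125b, which restrain TNFAIP3 and so prolong NF-kB signalling and are also expressed outside leukocytes. miR-125b had 2913, 2970 and 2794 CPM in grass-fed and 1087, 1086 and 1691 CPM in the grain-fed animals. Its log2 fold change was 1.17 (FDR = 0.00329, edgeR). miR-125a averaged 1053 ± 317 against 472 ± 86.0 CPM (SD, n = 3 each; log2 fold change 1.16, FDR = 0.00941, edgeR). miR-21-5p, induced by inflammatory cytokines through STAT3, was far more abundant, with 53287 ± 13532 CPM against 46364 ± 5729 CPM (SD, n = 3 each; log2 fold change 0.20, FDR = 0.603, edgeR). miR-181a, a regulator of T cell receptor signalling, averaged 1379 ± 279 against 1498 ± 202 CPM (SD, n = 3 each; log2 fold change -0.12, FDR = 0.804, edgeR). With total counts alone the value of miR-21-5p was -0.19, and with upper-quartile scaling that of miR-181a was 0.07.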

How the data were processed

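Per the labels and the paper's methods, reads were stripped of adapters and low-quality sequence, those of 17 to 25 bases were aligned with ARS-UCD1.2, and the authors counted miRBase 22.0 miRNAs with miRDeep2. Its settings are not given in the sources consulted. FastQC 0.11.5 and Trimmomatic 0.36 stand in the submitters' processing notes. The deposited counts are raw whole numbers per pair of mature miRNA and precursor. The authors' deposited CPM divides them by the library total and was not used here. For each mature miRNA the largest count over its precursors was taken. Groups and replicates come from the sample titles.

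The filter kept miRNAs counted more than 2 times in 2 or more libraries. Counts were scaled by TMM and tested with the quasi-likelihood test of edgeR 4.0.16 (newer form of the fit) in R 4.3.3, with no block, Benjamini-Hochberg adjustment over all tested miRNAs and FDR 0.1. Standard errors were derived from the log2 fold change and the F statistic. DESeq2 1.42.0, other scalings and filters, and each library left out were alternatives. Replicates of a diet differed by more than sampling noise. The series text names separate individuals for the libraries. The Poisson and binomial intervals of single libraries cover counting error only. The intervals of the log2 fold changes come from the edgeR fit and also cover variation between animals.

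The 8 miRNAs, the lists and the tests were chosen with earlier results of these data known. The lists were written from general knowledge. Named are the 8 members, listed immune miRNAs past FDR 0.1 with miR-21-5p and miR-181a, miR-122 and the erythroid miRNAs. miR-192, miR-194 and miR-148a are named as the rest of the hepatocyte list. Mature sequences were not used here, so that miRNAs with a shared seed were not looked for.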

Additional observations from a re-analysis of the deposited data

How the results depend on the processing

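The 8 miRNAs were compared under 18 alternatives, 1 of which, the older form of the quasi-likelihood fit, was chosen after seeing the data. miR-146b was lower in grass-fed liver and passed the threshold under all 18. miR-146a was lower under all 18 and lost its call under 10. The number of the 8 past the threshold was 4 with total counts alone, where 16.2% of all tested miRNAs passed. It was also 4 with total counts without bta-miR-122 (17.8% of all) and under a filter of 10 counts in 3 libraries (27.1% of all). With DESeq2 it was 3 (20% of all). It was 1 with at least 1 count in any library (12.3% of all), with the exact test of edgeR (19.3%) and at FDR 0.05 (15.4%). Without 1 library it lay between 1 and 2, and it was 1 without grass-fed replicate 2, grass-fed replicate 3, grain-fed replicate 2 or grain-fed replicate 3. Over all tested miRNAs the number was 87 (19.1%), and 49 to 86 without 1 library (10.8% to 19.6%), the lowest without grain-fed replicate 2. With upper-quartile scaling miR-142-5p turned to 0.049 and miR-181a to 0.068. With total counts alone miR-155 turned to -0.018, miR-342 to -0.021, miR-21-5p to -0.19 and miR-486 to -0.12. miR-21-5p lay between -0.097 and 0.29 without 1 library, the negative value being that without grass-fed replicate 1. The causes were not tested.

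Of the log2 ratios, that of miR-142 lay between 0.46 and 1.31 without 1 library, that of miR-146a to miR-146b between -0.14 and 0.18, and that of the 8 to the hepatocyte miRNAs between -1.35 and -0.94. Same-numbered libraries of the diets did not deviate together (r = -0.05, -0.20 and -0.01 across 456 miRNAs, which are not independent replicates). With the replicate number as a block, edgeR called 82 miRNAs and 2 of the 8, miR-146b and miR-142-3p (FDR = 0.0910 for the latter), and the paired exact p was 0.5, 1 and 0.25 for the ratios in the order above. The grain-fed depth limits miR-223 and miR-142-3p most.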
